A study of Homo sapiens with 2 samples.

Results

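A set of 10 genes of the cytosolic heat shock response was followed by RNA-seq in 786-O, a cell line derived from a human clear cell renal carcinoma and known to lack functional VHL. There was 1 library of cells cultured without glucose (0 mM) and 1 library of cells cultured with glucose (25 mM). The genes were the HSP70 genes HSPA6, HSPA1A, HSPA1B and HSPA8, the HSP110 gene HSPH1, the HSP90 gene HSP90AA1, the small heat shock protein genes HSPB1 and CRYAB, and the cochaperone genes DNAJB1 and BAG3. They were chosen by name, as 10 of the 22595 gene symbols in the deposited tables, and all 10 were found in both libraries' tables and passed the minimum of 20 counts over both libraries. The samples also carry the short descriptions LucG (without glucose) and LucF (with glucose), which the labels leave unexplained, as they do the length of the culture without glucose. Anything else that these descriptions mark cannot be told apart from glucose. With 1 library per group there is no replicate check on any difference, no test was made, and the words higher and lower compare one library with the other.

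Cytosolic heat shock proteins bind unfolded or partly folded proteins and hold, refold or pass them on for degradation. HSP70 chaperones are driven by ATP, J-domain cochaperones bring them substrates and start ATP hydrolysis, and nucleotide exchange factors such as HSPH1 and BAG3 reset them, while HSP90 completes the folding of kinases, receptors and other clients and small heat shock proteins hold unfolded proteins without ATP. Some of these genes, such as HSPA8, are transcribed in all growing cells, and others, such as HSPA1A, HSPA1B and HSPA6, are switched on when unfolded proteins release the transcription factor HSF1, which binds heat shock elements, arrays of the unit GAA and its complement in alternating direction. The cytosolic response differs from the unfolded protein response of the endoplasmic reticulum, which uses other sensors and the paralogs HSPA5 and HSP90B1.

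The library without glucose held 31345853 counts and the library with glucose 27317598, and 14240 genes were measured. Levels are given as CPM, the counts of a gene per 1000000 counts of the scaled library. The ratio of a gene, without over with glucose, has an exact 95% Clopper-Pearson interval that covers counting error only. A gene was called higher when its whole interval lay above 2-fold and lower when it lay below 0.5-fold. The median log2 ratio over all measured genes was 0.01. Small nucleolar, Cajal body and microRNA genes took 7.99% of the counts without glucose and 5.83% with glucose, and no call among the 10 genes changed when these genes were left out of the scaling. The renal lineage factor gene PAX8 stood at 232 CPM without glucose and 244 CPM with glucose, while the renal genes CDH6 (log2 ratio -4.52) and LHX1 (-2.53) were lower and EPAS1 was higher. Of the markers of other cell types, the 5 leukocyte genes summed to 0.553 CPM without glucose and 0.898 CPM with glucose, the 4 endothelial genes to 0.39 CPM without glucose and 1.72 CPM with glucose, and the 5 fibroblast genes to 9.3 CPM without glucose and 19.2 CPM with glucose. Of these 14 genes 6 were measured, of which 0 were higher and 1 was lower, the fibroblast gene LUM (3.25 CPM without glucose and 10.6 CPM with glucose). The 3 erythroid genes had at most 2 counts without glucose and 0 with glucose, with HBA1 at 0 in both, and the part of other cells in the results below was not tested.

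Of the 10 genes, 5 were higher without glucose and 0 were lower. The share of all measured genes called higher was 3.76%, and the share called lower was 6.20%. The 5 higher genes were HSPA6, HSPA1A, HSPA1B, CRYAB and DNAJB1, and the genes transcribed at high level in the culture with glucose, HSPA8 and HSP90AA1, stood within 2-fold. The 10 genes had a median log2 ratio of 1.42, with a range from -0.53 for HSPB1 to 7.69 for HSPA6 against the floor, and 8 of them had a ratio above 1. The count of 5 is a description, since the genes were put forward with earlier results of these data known. It takes HSPA1A and HSPA1B as separate genes, although the split of reads between them is uncertain.

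**Figure D1:**
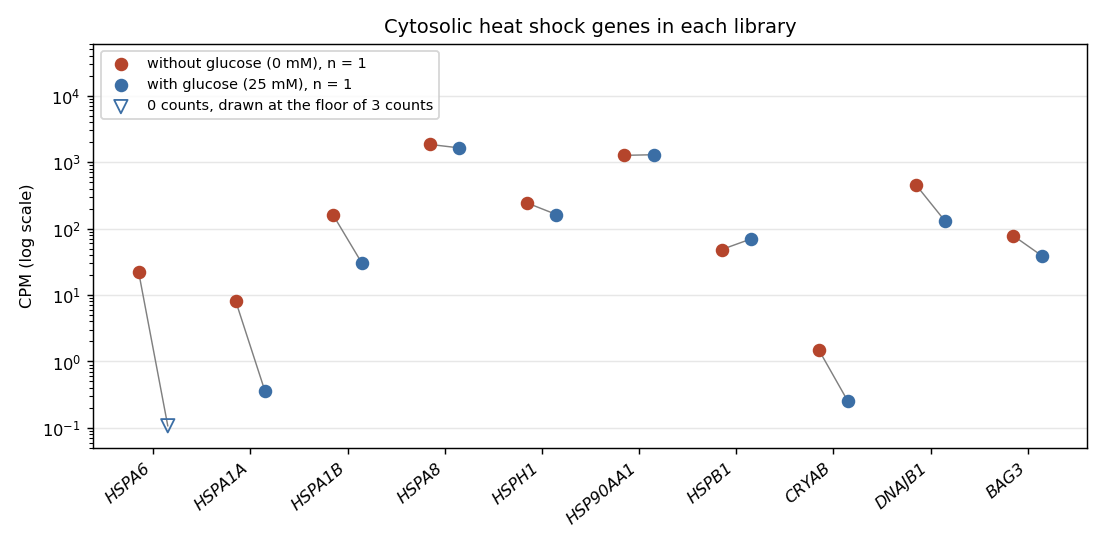
CPM on a log axis for each of the 10 genes, with 1 point per library (without glucose, red, and with glucose, blue) and n = 1 in each. HSPA6, at 0 counts with glucose, is drawn there at the floor of 3 counts as an open triangle. The gap between the points is widest for HSPA6 and HSPA1A and narrow for HSPA8 and HSP90AA1.

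HSPA6 encodes HSP70B', an HSP70 that human cells make under severe proteotoxic stress and hold at very low level otherwise. It had 685 counts without glucose (22.3 CPM) and 0 counts with glucose, where the floor of 3 counts stands at 0.108 CPM. It was 207-fold higher without glucose when the count of 0 was set to this floor of 3 counts. The exact 95% interval, which allows more than 3 counts for a count of 0, began at 168-fold and had no upper end. On the floor scale, 0 of the other measured genes had a higher log2 ratio. Of 3192 symbols with 0 counts in the culture with glucose, 7 had at least 20 counts without glucose. Among the genes with the most similar pattern, at most 3 counts with glucose and the highest CPM without, were FBXW10 (3.48 CPM without glucose), BEX2 (3.09), C22orf24 (2.50) and LTF (1.85), all well below HSPA6.

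HSPA1A and HSPA1B are neighbouring genes for the same major stress-inducible HSP70. HSPA1B had 4970 counts without glucose (162 CPM) and 832 counts with glucose (29.9 CPM), a 5.41-fold difference (interval 5.03 to 5.83). HSPA1A had 247 counts without glucose (8.03 CPM) and 10 counts with glucose (0.359 CPM), a 22.4-fold difference with a wide interval of 12.0 to 47.2. Both were higher without glucose, and HSPA1B was also present in the culture with glucose. The split of reads between these genes is uncertain, because 72.6% of the 50-base stretches of the HSPA1A transcript also occur in HSPA1B, in the transcripts of GENCODE release 29. HSPA1A took 4.73% of the counts of the pair without glucose (Clopper-Pearson interval 4.17 to 5.35%) and 1.19% with glucose (0.571 to 2.17%). Their sum was 5217 counts without glucose and 842 with glucose, a log2 ratio of 2.49 (interval 2.38 to 2.60), called higher. This sum does not depend on the split if each read was counted for only 1 of the genes. The counting program is not given, so reads that fit both genes could be missing from it or counted for both.

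HSPA8 encodes HSC70, the HSP70 of unstressed cells, which also serves clathrin uncoating and chaperone-mediated autophagy. It had 56748 counts without glucose (1846 CPM) and 45610 with glucose (1638 CPM), a 1.13-fold difference (interval 1.11 to 1.14), within 2-fold. The gain of HSPA8, 208 CPM, was above that of HSPA1B, 132 CPM, and of HSPA6 at 22.3 CPM, although its ratio was near 1. The size of the HSPA8 gain depended on the scaling. Its log2 ratio was 0.12 with scaling by total counts and 0.21 with upper-quartile scaling.

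Levels can be compared between genes per length, in reads per kilobase of gene model and 1000000 reads (RPKM), as the authors' deposited tables give them. Over the 6 HSP70 genes HSPA8, HSPA1B, HSPA6, HSPA1A, HSPA2 and HSPA1L, the summed level was 891 RPKM without glucose and 766 RPKM with glucose. HSPA8 made up 91.1% of that sum without glucose and 97.7% with glucose. The 3 inducible genes HSPA1B, HSPA6 and HSPA1A together made up 8.43% without glucose (75.15 RPKM) and 1.61% with glucose (12.35 RPKM). These shares also rest on how reads that fit both HSPA1A and HSPA1B were counted, which is not known. HSPA2, a testis-enriched HSP70 found at lower level in many tissues, moved the other way, at 0.389% without glucose and 0.688% with glucose. HSPA1L, which starts next to HSPA1A on the other strand, had 51 counts without glucose and 23 with glucose (log2 ratio 1.01, interval 0.27 to 1.78) and was not called.

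**Figure D2:**
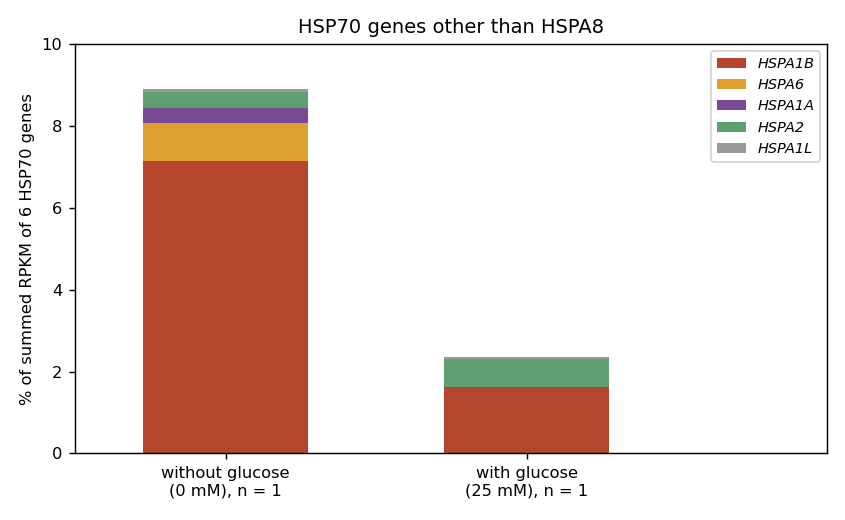
Share of the summed RPKM of 6 HSP70 genes taken by each gene other than HSPA8, in the library without glucose (left) and with glucose (right), n = 1 each, on a linear axis from 0 to 10%. HSPA1B is the main part of both bars, and HSPA6 is visible in the left bar only.

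The plus-strand gene HSPA6 covers bases 161494036 to 161496687 of chromosome 1 in hg19. HSPA1A (31783291 to 31785719) and HSPA1B (31795512 to 31798031) lie on the plus strand of chromosome 6, within the major histocompatibility complex. All 3 are gene models of 1 exon, whereas HSPA8, on the minus strand of chromosome 11 from 122928200 to 122932844, has 11 exons. Among 300 measured protein-coding genes of 1 exon other than histones, the median log2 ratio was -0.01 and 4.67% were called higher. HSPA7, a pseudogene that shares 45.5% of the 50-base stretches of HSPA6, had 13 counts without glucose and 2 with glucose. No gene model overlapped any of the 10 genes, and 16 others lay within 20 kb of one, of which 12 were measured and 1 was higher. That gene was C6orf48, a host of small nucleolar RNAs downstream of HSPA1B, with 8970 counts without glucose and 1734 with glucose (log2 ratio 2.23), while SNORD48 and SNORD52 inside it had log2 ratios of 0.32 and 0.35.

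The stretches before the starts of the inducible HSP70 genes, of DNAJB1, which is described below, and of the constitutive genes HSPA8 and HSP90AA1 are shown because these genes differed in their ratios and the letters of heat shock units were found in each. They are the 250 bases before the RefSeq start, in GRCh38.p14, 5′ to 3′ on the strand of the gene. Capitals mark each pair of units, GAANNTTC or TTCNNGAA, both of which read the same on the opposite strand, and overlapping pairs run together.
HSPA6 (chr1:161524290-161524539, plus strand): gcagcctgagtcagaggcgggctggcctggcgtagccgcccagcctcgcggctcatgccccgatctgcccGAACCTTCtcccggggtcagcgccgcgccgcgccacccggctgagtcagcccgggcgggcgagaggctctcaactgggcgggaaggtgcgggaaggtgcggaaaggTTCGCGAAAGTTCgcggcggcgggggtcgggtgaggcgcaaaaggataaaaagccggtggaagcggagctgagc
HSPA1A (chr6:31815293-31815542, plus strand): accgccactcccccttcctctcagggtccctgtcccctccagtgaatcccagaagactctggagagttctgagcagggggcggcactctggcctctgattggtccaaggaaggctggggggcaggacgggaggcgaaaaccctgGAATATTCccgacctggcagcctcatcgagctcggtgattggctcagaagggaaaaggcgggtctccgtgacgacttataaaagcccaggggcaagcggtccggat
HSPA1B (chr6:31827488-31827737, plus strand): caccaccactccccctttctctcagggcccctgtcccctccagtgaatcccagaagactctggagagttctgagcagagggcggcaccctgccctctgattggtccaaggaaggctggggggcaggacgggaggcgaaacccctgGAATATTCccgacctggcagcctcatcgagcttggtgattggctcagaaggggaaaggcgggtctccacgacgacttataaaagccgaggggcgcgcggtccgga
DNAJB1 (chr19:14518398-14518647, minus strand): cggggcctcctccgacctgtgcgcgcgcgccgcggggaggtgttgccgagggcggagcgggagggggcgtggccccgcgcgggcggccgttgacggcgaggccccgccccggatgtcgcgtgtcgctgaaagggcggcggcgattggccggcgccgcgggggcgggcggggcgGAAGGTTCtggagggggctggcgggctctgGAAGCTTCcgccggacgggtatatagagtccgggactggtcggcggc
HSPA8 (chr11:123062137-123062386, minus strand): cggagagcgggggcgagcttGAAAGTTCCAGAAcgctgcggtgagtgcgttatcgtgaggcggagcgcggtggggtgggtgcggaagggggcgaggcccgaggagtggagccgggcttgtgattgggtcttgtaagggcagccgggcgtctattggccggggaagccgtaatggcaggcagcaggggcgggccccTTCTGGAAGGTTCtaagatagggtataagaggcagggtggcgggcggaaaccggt
HSP90AA1 (chr14:102087045-102087294, minus strand): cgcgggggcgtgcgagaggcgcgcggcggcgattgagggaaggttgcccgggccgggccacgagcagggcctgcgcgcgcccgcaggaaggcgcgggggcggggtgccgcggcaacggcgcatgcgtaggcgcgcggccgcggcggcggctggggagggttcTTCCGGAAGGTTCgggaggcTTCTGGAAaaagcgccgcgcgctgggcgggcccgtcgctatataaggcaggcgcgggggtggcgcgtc

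Of the 35116 RefSeq starts in the table, 11.6% had at least 1 such pair in the 250 bases before them and 0.441% had a run of 3 alternating units. Of the 10 genes, 9 matched the table by symbol, all but CRYAB. They had 12 starts, of which 7, each of a different gene, had a pair and 3 had a run of 3 units, namely those of HSPA6, HSPA8 and HSP90AA1. A run of 3 units was thus found before HSPA6, at 0 counts with glucose, and also before HSPA8 and HSP90AA1, whose ratios were within 2-fold. HSPA1A and HSPA1B each had 1 pair, beginning 106 and 105 bases before the start, and their stretches were identical at 235 of 249 aligned bases (94.4%). DNAJB1 had 2 pairs at the start shown, the nearest to its counted transcript, and none at its other 2 starts, while HSP90AA1 had none at its upstream start. HSPB1 had 1 pair, and HSPH1 and BAG3 had none in this window. The HSPH1 start of the table is 461 bases from that of the GENCODE transcript paired with the counted one. This distance was 199 bases for HSPA8, 147 for the HSP90AA1 start shown, 129 for HSPB1 and 79 for HSPA1A. It was at most 23 bases for HSPA6, HSPA1B, BAG3 and the DNAJB1 start shown. The matched letters describe the windows only, and binding at them was not tested.

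DNAJB1 encodes HSP40, the J-domain cochaperone that delivers substrates to HSP70 and stimulates its ATPase. It had 14010 counts without glucose (456 CPM) and 3611 counts with glucose (130 CPM), a 3.51-fold difference (interval 3.39 to 3.65). Its gain of 326 CPM was above that of each of the other 9 genes. Per length, DNAJB1 stood at 202 RPKM without glucose and 59.8 RPKM with glucose, which was 0.249 times the level of HSPA8 without glucose and 0.0800 times with glucose. All 3 of its exons had more than 10 reads in both libraries, per the authors' deposited exon counts.

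HSPH1 and BAG3 release the nucleotide from HSP70, HSPH1 as an HSP110 that also takes part in disaggregation, and BAG3 as a scaffold that links HSP70 and small heat shock proteins to selective autophagy. BAG3 had 2413 counts without glucose (78.5 CPM) and 1074 with glucose (38.6 CPM), a 2.04-fold difference. Its interval, 1.89 to 2.19, spanned 2-fold, so it was not called, although its ratio was above those of all but 999 measured genes. HSPH1 had 7448 counts without glucose (242 CPM) and 4531 with glucose (163 CPM), a 1.49-fold difference (interval 1.44 to 1.55). The ratios of HSPH1 and BAG3, the nucleotide exchange factors among the 10 genes, were thus above 1 and below that of DNAJB1. The level of DNAJB1 per length was 3.08 times that of HSPH1 without glucose and 1.30 times with glucose.

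HSP90AA1 encodes HSP90 alpha, the more stress-responsive of the cytosolic HSP90 isoforms. It had 38895 counts without glucose (1265 CPM) and 36013 with glucose (1293 CPM), a log2 ratio of -0.03 (interval -0.05 to -0.01). The sign of this ratio depended on the scaling, and it was 0.0047 with size factors by the median of ratios and 0.0063 with upper-quartile scaling. HSP90AB1, the constitutive isoform, had 1522 CPM without glucose and 1371 CPM with glucose (log2 ratio 0.15). Neither cytosolic HSP90 gene was called. Of the 50-base stretches of HSP90AA1, 18.7% also occur in other transcripts, mostly of pseudogenes, so that its counts and those of HSPA8 (15.1%) could hold reads of such copies.

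HSPB1 encodes HSP27, the widely expressed small heat shock protein that also binds actin, and CRYAB encodes alpha-B-crystallin, known from lens and muscle. HSPB1 had 1487 counts without glucose (48.4 CPM) and 1939 with glucose (69.6 CPM), and was 1.44-fold lower without glucose (interval 1.34 to 1.54), the lowest ratio of the 10. CRYAB had 46 counts without glucose (1.5 CPM) and 7 with glucose (0.251 CPM), a 5.95-fold difference (interval 2.67 to 15.6), called higher at a low level. Of the 3 exons of CRYAB, 2 had more than 10 reads without glucose. With glucose 0 had, which its total of 7 counts there already fixed. Per length, HSPB1 exceeded CRYAB 24.9 times without glucose and 211 times with glucose. CRYAB has the shortest gene model of the 10, at 688 bases, and the 1424 genes of its class among 10 classes by length had a median log2 ratio of 0.31, with 4.35% called higher. The part of this class difference in the CRYAB value was not tested.

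**Figure D3:**
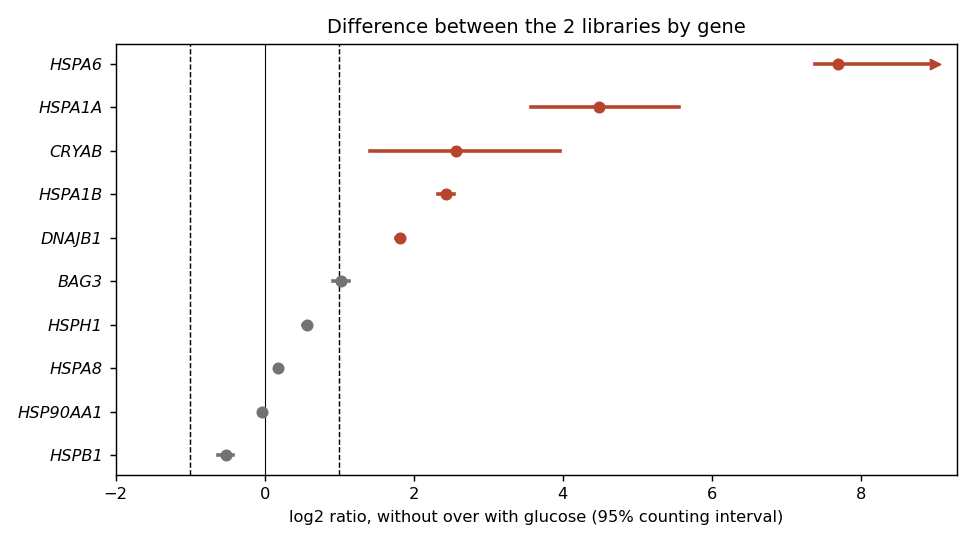
Log2 ratio without over with glucose for each of the 10 genes (points) with its exact 95% counting interval (bars), n = 1 library per group. Dashed lines mark 2-fold in each direction, red genes were called higher, grey genes were not called, and the arrow marks the open upper end of the HSPA6 interval. BAG3 sits on the 2-fold line.

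Per length, the order without glucose was HSPA8 (812 RPKM), HSP90AA1 (309), DNAJB1 (202), HSPH1 (65.8), HSPA1B (63.6), HSPB1 (53.6), BAG3 (30.3), HSPA6 (8.32), HSPA1A (3.28) and CRYAB (2.15). The order with glucose was HSPA8 (748 RPKM), HSP90AA1 (327), HSPB1 (80.1), DNAJB1 (59.8), HSPH1 (45.9), BAG3 (15.5), HSPA1B (12.2), CRYAB (0.38), HSPA1A (0.15) and HSPA6 (listed at 0). The neighbours HSPH1 and HSPA1B without glucose, and CRYAB and HSPA1A with glucose, had overlapping exact Poisson intervals. By the listed values HSPA1B stood in place 5 without glucose, not resolved from HSPH1, and in place 7 with glucose. HSPB1 stood in place 6 without glucose and in place 3 with glucose. The places of HSPA1A and HSPA1B also rest on the uncertain split of reads between them. HSPA8 and HSP90AA1 held 75.3% of the summed counts of the 10 genes without glucose and 87.2% with glucose. The other 8 genes summed to 1018 CPM without glucose and 431 CPM with glucose.

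**Figure D4:**
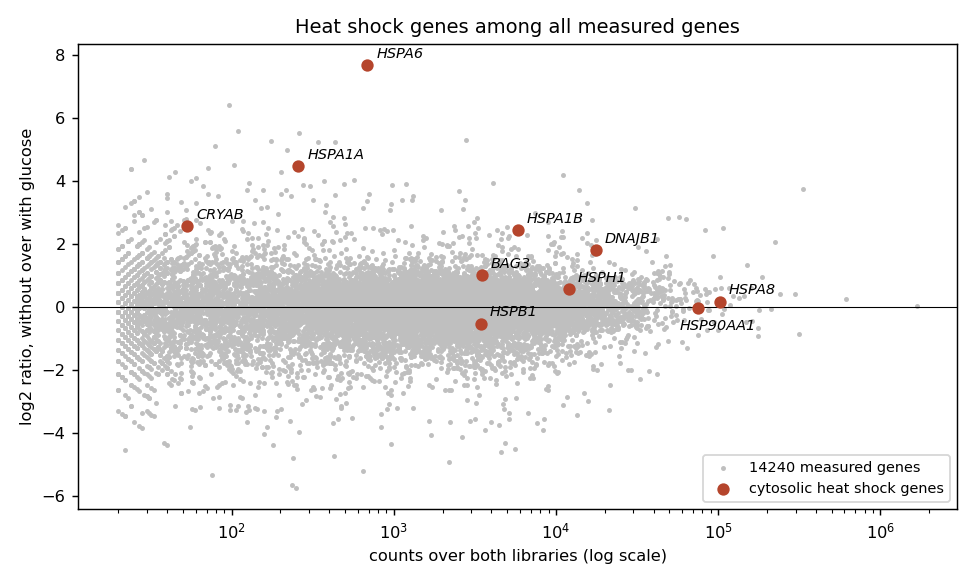
Log2 ratio without over with glucose (vertical) against counts over both libraries on a log axis (horizontal) for the 14240 measured genes (grey), with the 10 heat shock genes in red, n = 1 library per group. HSPA6 is the highest point, and HSPA8 and HSP90AA1 lie near 0 at the high end of counts.

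Other genes of the heat shock network came from lists of 78 genes, chosen with earlier results of these data known, of which 70 were measured. Without glucose 7 of the 70 were higher and 2 lower, beside 3.76% higher and 6.20% lower among all measured genes. HSF1, the main heat shock transcription factor, had 109 CPM without glucose and 84.0 CPM with glucose (log2 ratio 0.38, interval 0.30 to 0.45). None of the 6 measured heat shock factor genes and regulators was called (median 0.16), and the one at 10 CPM or more with the widest difference was HSF2 (0.47).

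The other cytosolic chaperones and cochaperones, beyond the 10 genes, had 47 measured members, of which 0 were higher and 2 lower, beside the same shares of 3.76% and 6.20% among all measured genes. Their median log2 ratio was -0.03. The 2 lower genes were the atypical HSP70 HSPA12A (28.9 CPM without glucose and 69.2 CPM with glucose, log2 ratio -1.26) and HSPA14, a partner of the ribosome-associated complex (17.7 CPM without glucose and 40.4 CPM with glucose, -1.19). The 19 measured genes of HSP90AB1 and of cochaperones of HSP70 and HSP90 had a median of 0.04, with the widest difference for TTC4 (0.55). The 8 subunits of the chaperonin CCT, which folds actin and tubulin, had a median of -0.09, with the widest difference for CCT5 (-0.36). Among 7 measured J-domain genes the widest difference at 10 CPM or more was that of DNAJB6 (-0.64), and among 5 BAG genes that of BAG1 (0.998), whose interval of 0.85 to 1.14 spanned 2-fold. HSPB8, the small heat shock protein that partners BAG3, had 41.1 CPM without glucose and 26.5 CPM with glucose (0.64), and 6 of the 8 other small heat shock protein genes were below 20 counts.

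Of 4 measured paralogs in the endoplasmic reticulum, 3 were higher, and HSPA13 was not called (log2 ratio 0.89, interval 0.84 to 0.93). HSPA5, HSP90B1 and HYOU1, the HSP70, HSP90 and HSP110 of that compartment, had log2 ratios of 3.74, 2.51 and 2.45, against 0.17 for HSPA8, -0.03 for HSP90AA1 and 0.57 for HSPH1 in the cytosol. Of the mitochondrial paralogs, HSPA9, the HSP70 mortalin, had 909 CPM without glucose and 431 CPM with glucose (log2 ratio 1.08, interval 1.05 to 1.11) and was called higher, a call that was lost with scaling by total counts. HSPD1 (0.48), TRAP1 (0.22) and HSPE1 (-0.32) were not called. Of 9 other genes that heat induces, listed for roles outside the cytosolic chaperones, 3 were higher, namely ZFAND2A, an AN1-type zinc finger gene of the arsenite and heat response (76.7 CPM without glucose and 5.92 CPM with glucose, 3.69), HMOX1, heme oxygenase (461 CPM without glucose and 47.0 CPM with glucose, 3.29) and CLU, or clusterin, which is itself a chaperone, secreted from cells (87.8 CPM without glucose and 19.0 CPM with glucose, 2.21). HMOX1 is also a target of the oxidative stress factor NRF2. The polyubiquitin gene UBB had a log2 ratio of 0.04 and was not called.

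**Figure D5:**
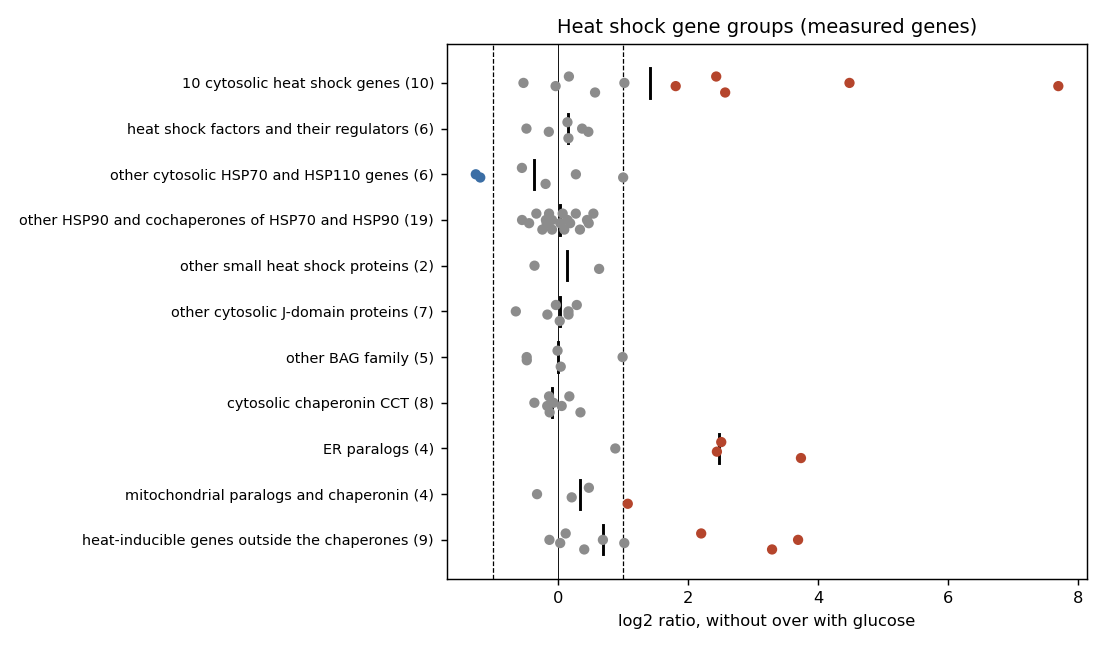
Log2 ratio without over with glucose for each measured gene (points) of the 10 heat shock genes and of 10 related lists, with the number of measured genes in brackets and the median as a bar, n = 1 library per group. Red genes were called higher, blue genes lower, and dashed lines mark 2-fold. Outside the top line, red points are found in the lists of endoplasmic reticulum and mitochondrial paralogs and of heat-inducible genes outside the chaperones, a list that also holds the secreted chaperone CLU.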

How the data were processed

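Gene expression was measured by RNA-seq in 2 samples of 786-O cells, grouped by sample title. Trizol was used to extract total RNA, per the labels' protocols. The submitters' processing notes name the build hg19. The library preparation, aligner, counting program, use of strand and time without glucose are not given in the labels. The deposited counts were whole, unnormalized numbers per gene model, and per the file headers the deposited RPKM values were these counts per kilobase and per 1000000 reads. The tables also gave the number of exons with more than 10 reads.

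Of 24364 rows, 528 that repeated the place, length and both counts of another row were left out, and the rest were added up by symbol. Effective library sizes used TMM factors of edgeR 4.0.16 (R 4.3.3) from genes with at least 20 counts, 0.981 without glucose and 1.02 with glucose. A count of 0 was set to 3 counts in ratios. Intervals used Python 3.11.15 with scipy 1.17.1 (numpy 2.4.6, pandas 2.3.3). The intervals and calls were tried on simulated counts that held counting error only, scaled by their set totals. Such a trial cannot check the scaling or the spread between libraries. PCR can copy a molecule into several reads, so intervals and floors cover counting error only. Promoter stretches came from RefSeq (GRCh38.p14), in other coordinates than the counts, and shared stretches of 50 bases were sought on both strands of GENCODE release 29 transcripts.

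The genes, lists and rules were chosen with earlier results of these data known. The genes named were the 10 genes, list members past the rule of size, the widest difference of each list at 10 CPM or more, near copies and neighbours, and the 5 genes with a pattern most like HSPA6, of which 1 is not reported here. Listed genes were matched by symbol, or by RefSeq synonym for BAG6 and for HSPB2-C11orf52, which was matched to C11orf52.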

Additional observations from a re-analysis of the deposited data

How the results depend on the processing

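With each other scaling of the libraries (total counts, median of ratios, upper quartile, small RNA genes left out), 5 of the 10 genes were called higher and 0 lower, and their log2 ratios shifted by -0.06 to 0.04. The number of higher genes was 6 with a 1.5-fold bound or with the bound set on the ratio itself, which added BAG3, 4 with at least 100 counts, which left out CRYAB, and 3 with a 4-fold bound, which left out CRYAB and DNAJB1. With the 4-fold bound, 0 genes of the wider lists were lower. The median log2 ratio of the 10 genes lay between BAG3 and DNAJB1 and moved with the genes kept. It was 1.03 with at least 100 counts, with HSPA1A and HSPA1B as 1 gene, or with HSPA6 left out, and 1.0 with 1 CPM added to both libraries. With HSPA1A and CRYAB, which had few counts with glucose, left out, a setting chosen after seeing the data, it was 0.80 and 3 genes were higher. With 1 CPM added, the log2 ratio was 4.54 for HSPA6, 2.73 for HSPA1A and 0.996 for CRYAB. No paired analysis was possible because there was only 1 sample per group, and for the same reason none could be omitted in turn. Depth limits the ratios of genes with few counts with glucose, here HSPA6, HSPA1A and CRYAB.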
